A study of Arabidopsis thaliana with 12 samples.

Results

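RPL5 (AT4G01310) is a nuclear gene for a protein of the large subunit of the plastid ribosome in Arabidopsis thaliana, and it was the only plastid ribosomal protein gene followed here. Genes were to be chosen as those on a probe with a single gene whose name or description holds the words "ribosomal protein", and AT4G01310 was given by name as a member. In the symbols and synonyms of the gene tables used here those words matched 0 of the 692 probes with a single gene, and AT4G01310 is listed there with its locus and clone names only. The description below therefore rests on 1 gene of the 3248 features tested, of which 650 have a single gene name, and further ribosomal protein genes on the array were not analysed here. The name RPL5 and its role are background knowledge, which these data do not test.

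Plastids have ribosomes of the bacterial type, whose RNAs and part of whose proteins are encoded in the plastid genome, while the remaining proteins, L5 among them, are made in the cytosol and imported. In Escherichia coli L5 binds a ribosomal RNA of the large subunit together with other ribosomal proteins. These ribosomes translate the plastid-encoded core subunits of both photosystems, the complexes between which STN7 balances excitation.

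The series measured total RNA of the Columbia ecotype on 1-channel arrays in 6 samples titled stn7, the mutant lacking a thylakoid protein kinase needed for state transitions, and in 6 samples titled WT, the wild type. The labels give no allele, age, tissue, light regime or treatment. Titles set the groups here, because the source names of stn7 samples 2 to 6, 5 of the 6, read WT and only that of stn7 sample 1 reads mutant. No probe with a gene entry named STN7, so the mutated gene did not check the labels. Samples 1 and 2, 3 and 4, and 5 and 6 of each group deviated together from their group mean over all features, with correlations of 0.188 to 0.632, against at most 0.170 with any other sample. Each such pair was averaged, which left 3 replicates per group. Nothing in the labels tells whether they are separate plants or repeat measurements, so the spread behind each p-value may be technical. Array medians lay between 0.354 and 0.414 in the stn7 samples and between 0.297 and 0.369 in the WT samples. Of 6 green leaf marker genes 4 were measured and none of these passed the test. None of 4 root, 4 seed and 3 senescence markers was among the features tested, which leave out probes at the floor throughout. RNA of those tissues was therefore not checked for.

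RPL5 transcript was measured above the floor in all 12 samples with a higher mean in stn7, but the difference did not pass the test in the comparison as normalized. As deposited, on a linear relative scale, RPL5 intensities were 0.956, 1.12, 0.976, 1.06, 0.891 and 0.983 in stn7 samples 1 to 6, against 0.809, 0.814, 0.817, 0.936, 0.571 and 0.571 in WT samples 1 to 6. The groups overlapped through a single pair of samples, since WT sample 4 lay above stn7 sample 5. WT samples 5 and 6 stood lowest of all 12.

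After quantile normalization, which gives all arrays the same distribution of intensities, RPL5 levels on the log2 scale were -0.07, 0.19, -0.05, 0.06, -0.26 and -0.10 in stn7 samples 1 to 6, against -0.27, -0.27, -0.29, -0.12, -0.64 and -0.63 in WT samples 1 to 6. The same 2 samples overlapped, stn7 sample 5 and WT sample 4. Averaged over consecutive samples, the level was -0.04 ± 0.13 log2 in stn7 and -0.37 ± 0.23 log2 in WT (SD, n = 3 each). The 3 stn7 replicates, at 0.06, 0.01 and -0.18 log2, lay above the 3 WT replicates, at -0.27, -0.21 and -0.64 log2. The lowest stn7 replicate and the highest WT replicate were close to each other. Of all features, 20.8% had every stn7 replicate above every WT replicate in the same way.

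The stn7 minus WT difference of RPL5 was 0.33 log2, a 1.26-fold higher mean level (SE 0.17, 95% interval -0.06 to 0.73), with an adjusted p of 0.222 in limma, a linear model fitted across all features. The call threshold was an adjusted p of 0.05, which 15.2% of all features passed, 6.53% as higher and 8.68% as lower. An exact two-sided permutation test over the 3 replicates per group gave p = 0.1 for RPL5, the smallest value this design allows. Among the 3248 features 820 had a higher difference than RPL5, and the quartiles of all differences were -0.29 and 0.34 log2. The RPL5 difference was thus close to the upper quartile of the array.

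**Figure D1:**
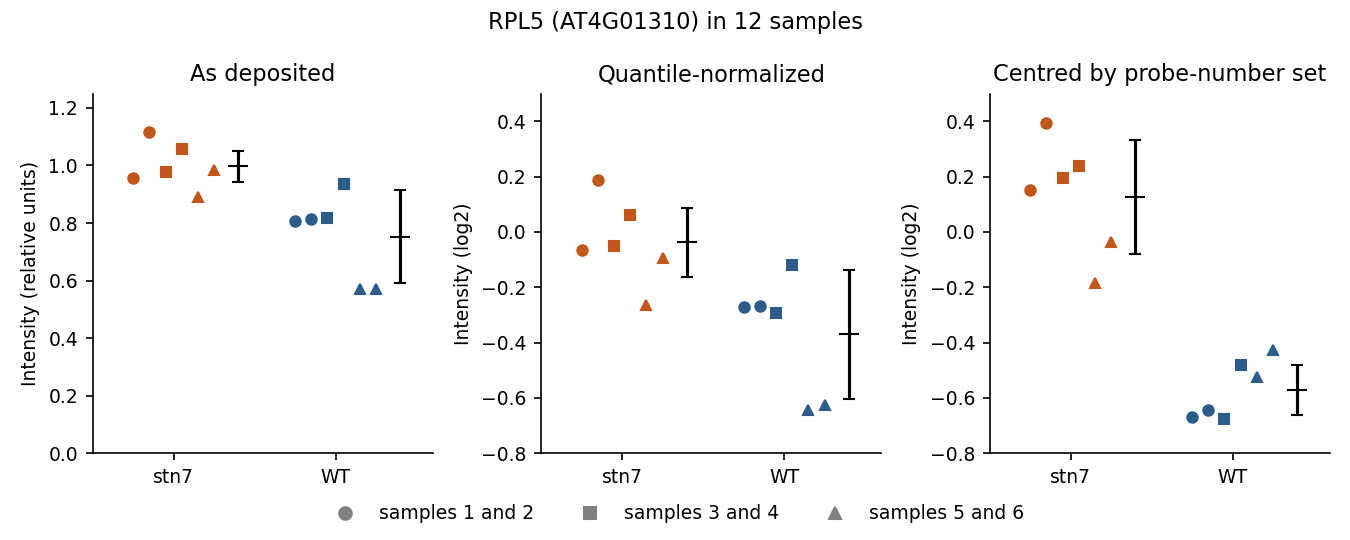
RPL5 in 6 stn7 samples (orange, left) and 6 WT samples (blue, right): intensity as deposited in relative units, log2 intensity after quantile normalization, and log2 intensity after centring by probe-number set. Symbols mark consecutive samples and black bars the mean ± SD of the 3 averaged replicates; stn7 sample 5 and WT sample 4 overlap in the first and second panels, and no samples overlap in the third.

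The replicates of RPL5 varied less than those of most features. Its pooled standard deviation within groups was 0.19 log2 over averaged replicates, against a median of 0.24 log2 over all features, and 67.4% of features had a larger one. Consecutive samples differed by 0.25, 0.11 and 0.17 log2 in the 3 stn7 pairs and by 0.00, 0.18 and 0.02 log2 in the 3 WT pairs. The gap between WT samples 5 and 6 and the other WT samples was therefore a difference between replicates and not within one. Without that WT replicate the RPL5 difference was 0.20 log2 (limma, adjusted p = 0.392), against 0.33 with it. With only stn7 sample 1, the sample whose source name says mutant, set against the WT the RPL5 difference was 0.30 log2 (limma, adjusted p = 0.475).

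Probes were also grouped by number, into 48 sets of 6 consecutive numbers that recur in a fixed cycle along the array's numbering. The median stn7 minus WT difference of a set ran from -0.62 to 0.63 log2 over the 48 sets, which is given as a description with no test between sets. The median of the RPL5 set had the sign opposite to RPL5, and 6 sets had a lower one. The RPL5 probe has number 4297. The 71 features of its set, RPL5 included, had a median stn7 minus WT difference of -0.30 log2, and 14 of them were called lower and 0 higher. For the whole array the median difference was 0.05 log2, with 8.68% of features called lower and 6.53% higher. Only 1 feature of the set had a higher difference than RPL5, and 15 of the 71 lay above 0. The 7 tested features within 5 probe numbers of RPL5 all lay below 0, with differences between -1.51 and -0.20 log2 and a median of -0.56. RPL5 thus stood apart in sign from every tested feature in this window, but probes 4292 to 4295 lie outside its set. Those had the lowest differences, -0.56 log2 or below, against -0.53 to -0.20 log2 for the neighbours in its set.

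**Figure D2:**
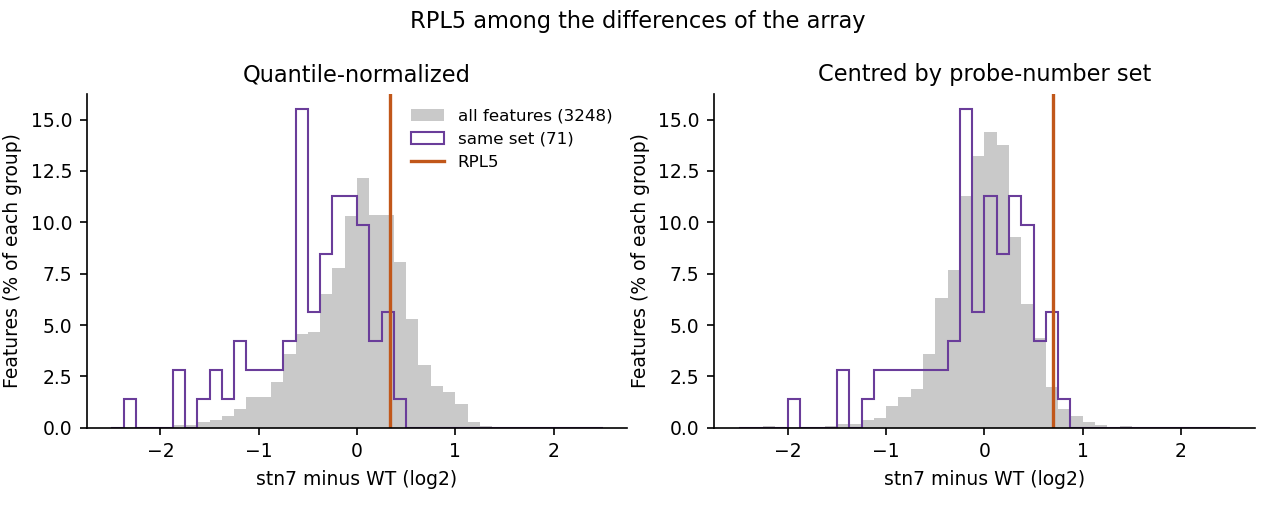
Histograms of the stn7 minus WT difference (log2) as a percentage of features, for all 3248 features (grey) and the 71 features of the RPL5 set (purple outline), before and after centring by set, with RPL5 as a vertical line. RPL5 lies at 0.33 log2 before centring, where the median of its set is -0.30, and at 0.70 log2 after it.

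The set median differed most among the WT samples. Expressed as a deviation from the mean of the 12 samples, the median of the set lay between -0.25 and -0.06 log2 in the stn7 samples. It lay between 0.36 and 0.40 log2 in WT samples 1 to 4 and at -0.12 and -0.20 log2 in WT samples 5 and 6. RPL5 itself deviated by -0.06 to 0.39 log2 in the stn7 samples and by -0.44 to 0.09 log2 in the WT samples. RPL5 and its set were both lower in WT samples 5 and 6 than in the other WT samples.

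**Figure D3:**
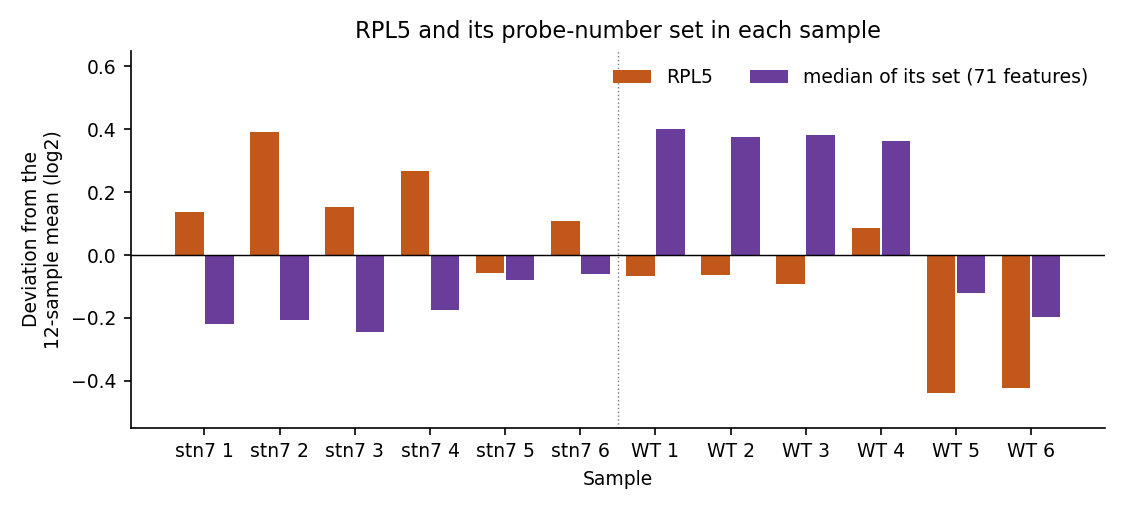
Deviation from the 12-sample mean (log2) of RPL5 (orange bars) and of the median of the 71 features in its probe-number set (purple bars), in stn7 samples 1 to 6 (left) and WT samples 1 to 6 (right). The set median is highest in WT samples 1 to 4, at 0.36 to 0.40 log2, where RPL5 deviates by -0.09 to 0.09 log2.

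When the median deviation of the set was subtracted from each of its features in each sample, RPL5 passed the test as higher in stn7. Set-centred RPL5 levels were 0.15, 0.39, 0.19, 0.24, -0.18 and -0.04 log2 in stn7 samples 1 to 6, against -0.67, -0.64, -0.68, -0.48, -0.52 and -0.43 log2 in WT samples 1 to 6. All 6 stn7 samples lay above all 6 WT samples. How many of all features separate by single samples in this way was not counted. The set-centred difference of RPL5 was 0.70 log2 (SE 0.15, 95% interval 0.35 to 1.04), with an adjusted p of 0.0375 in limma. That is a 1.62-fold higher level relative to the median of its set, against 1.26-fold as normalized. Between same-numbered replicates 1, 2 and 3, centring moved the difference from 0.33 to 0.93, 0.21 to 0.79 and 0.46 to 0.37 log2. The difference thus rose in replicates 1 and 2 and fell in replicate 3. In the set-centred fit 5.67% of all features passed, 1.79% as higher and 3.88% as lower, and 83 of the 3248 features had a higher difference than RPL5. The 3 averaged stn7 replicates of RPL5 lay above the 3 WT replicates, as those of 16.7% of all features did. An exact two-sided permutation test over these set-centred replicates gave p = 0.1 again, the smallest value this design allows. The sets were found in the stn7 minus WT differences of these data in earlier work on the series. The set-centred call of RPL5 is therefore not independent of them.

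The set-centred call of RPL5 was close to the threshold. Leaving out 1 averaged replicate, RPL5 passed without stn7 replicate 3 (0.81 log2, limma, adjusted p = 0.0271) and missed it in the other 5 cases, at 0.62 to 0.74 log2 with adjusted p up to 0.149. Leaving out 1 sample, it passed in 11 of 12 cases and missed it without stn7 sample 6 (0.67 log2, limma, adjusted p = 0.0564). Sets of 3 and of 12 numbers gave 0.65 and 0.74 log2 for RPL5, which passed both times. With set centring and the replicate number as a block the RPL5 difference of 0.70 log2 did not pass (limma, adjusted p = 0.0717). Whether the position of the probe accounts for the difference of the set was not tested.

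**Figure D4:**
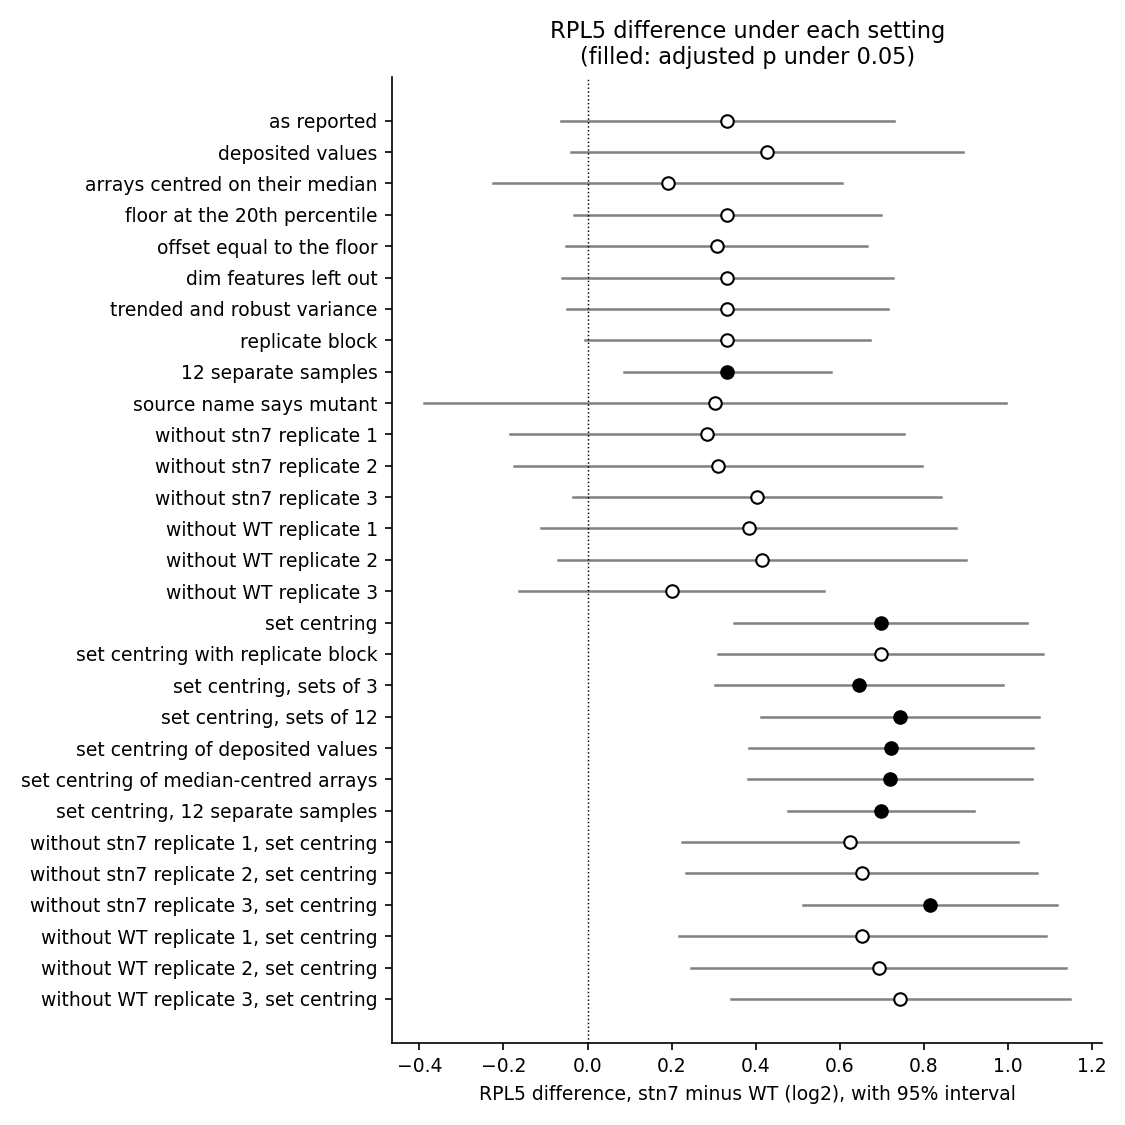
The RPL5 difference, stn7 minus WT (log2), with its 95% interval, under the settings named on the vertical axis; filled points had an adjusted p under 0.05 in limma. All points lie above 0, between 0.19 and 0.81 log2, and those after set centring lie at 0.62 log2 or above.

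Levels of 3 genes followed RPL5 most closely over the 12 samples. These were AT2G23160, with a Pearson correlation of 0.93 and a Spearman correlation of 0.90, AT1G01500 (0.93 and 0.93) and AT2G30100 (0.93 and 0.95). The median Pearson correlation with RPL5 over the other 649 single-gene features was 0.04 and the range -0.91 to 0.93, so these 3 are the extreme of many values. With group means removed they correlated with RPL5 at 0.88, 0.87 and 0.86. The 12 points share arrays and consist of consecutive samples that vary together. AT2G23160 differed by 0.52 log2 between stn7 and WT (SE 0.17), AT1G01500 by 0.60 log2 (SE 0.20) and AT2G30100 by 0.49 log2 (SE 0.18), and none of the 3 passed in limma, with adjusted p between 0.0760 and 0.0984. Taken as 12 separate samples, which counts consecutive samples as independent, all 3 passed, as RPL5 did. In that fit 1283 of the 3248 features passed. The 3 were chosen by their correlation with RPL5 in these same values, group difference included. Their differences and calls are therefore not independent of those of RPL5. All 3 lie in other probe-number sets than RPL5. After set centring their differences were 0.29, 0.17 and 0.10 log2, against 0.70 for RPL5, and none passed.

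From the gene names, 6 measured genes that act with the plastid ribosome or on the RNAs it reads were picked after the files had been opened. The list was not drawn up as a complete set of such genes. Of these 6, 1 was called lower and 0 higher. Over all features 8.68% were called lower and 6.53% higher. PAC (PALE CRESS, AT2G48120), a plastid protein needed for maturation of ribosomal RNA and for chloroplast development, was the member that fell. Normalized PAC levels were -1.68, -1.64, -1.90, -1.95, -1.92 and -2.22 log2 in stn7 samples 1 to 6, against -0.71, -0.81, -1.17, -1.04, -1.35 and -1.41 log2 in WT samples 1 to 6. All stn7 samples lay below all WT samples for PAC. Its averaged stn7 replicates also lay below its WT replicates, as those of 17.9% of all features did. The share of features with all single samples separate was not counted. The PAC difference was -0.80 log2, a 1.75-fold lower level (SE 0.20, limma, adjusted p = 0.0393), beside the 8.68% of all features called lower. PAC did not pass in the deposited values (-0.56 log2), after set centring (-0.30 log2, limma, adjusted p = 0.374), or with only stn7 sample 1 against the WT (-0.60 log2). Without 1 averaged replicate it passed only where WT replicate 3 was left out (-0.95 log2, limma, adjusted p = 0.0437), and the other 5 cases gave -0.92 to -0.64 log2. Without stn7 sample 1 alone it missed the threshold as well (-0.80 log2, limma, adjusted p = 0.0529).

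The remaining 5 genes did not pass, with adjusted p between 0.480 and 0.877 in limma, and the median difference of the 6 was -0.14 log2, against 0.05 over all features. OTP70 and OTP85, pentatricopeptide repeat proteins of organelle transcript processing, differed by -0.23 log2 each (SE 0.23 and 0.20). For OTP85 the stn7 samples ran from -2.88 to -2.04 log2 with a median of -2.46, and the WT samples from -2.53 to -1.98 with a median of -2.22. In the deposited values OTP85 differed by 0.0013 log2. CRR21, a pentatricopeptide repeat protein needed for editing of a plastid NDH transcript, differed by 0.12 log2 (SE 0.19), but by -0.27 after set centring. ATAB2 (AT3G08010), an RNA-binding protein of the translation of photosystem messages, differed by 0.15 log2 (SE 0.19). Its levels were near the floor of -3.83 log2, with 1 of 6 stn7 samples and 2 of 6 WT samples at it, and its direction turned after set centring (-0.12 log2) and with median centring (-0.0029 log2). SECE1, a subunit of the thylakoid translocase that inserts plastid-made proteins, differed by -0.05 log2 (SE 0.19). For SECE1 the direction turned in the deposited values (0.12 log2) and after set centring (0.40 log2, limma, adjusted p = 0.137). With only stn7 sample 1 set against the WT, OTP70 differed by -0.73 log2 (95% interval -1.29 to -0.17), OTP85 by -0.67 log2 (-1.29 to -0.05), CRR21 by 0.61 log2 (0.03 to 1.19), ATAB2 by 0.34 log2 (-0.40 to 1.08) and SECE1 by 0.07 log2 (-0.82 to 0.96). None of these 5 passed in that fit, which assumes that the lone sample varies like the WT (limma, adjusted p between 0.129 and 0.908).

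**Figure D5:**
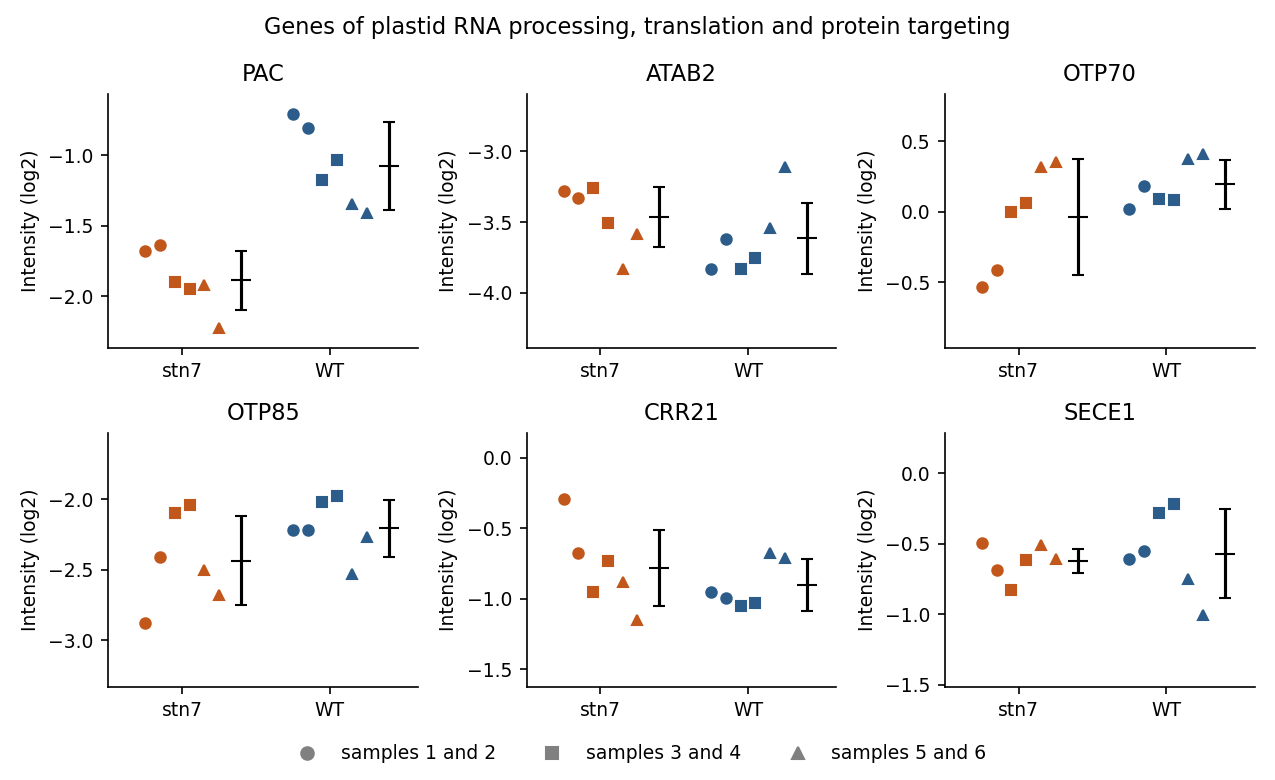
Normalized log2 intensity of PAC, ATAB2, OTP70, OTP85, CRR21 and SECE1 in 6 stn7 samples (orange, left) and 6 WT samples (blue, right), with the mean ± SD of the 3 averaged replicates as black bars; each vertical axis spans the same log2 range. The groups are separate for PAC, with stn7 at or below -1.64 log2 and WT at or above -1.41 log2, and overlap for the other 5.

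A list by words for the translation machinery, such as ribosome, initiation factor, elongation factor and tRNA, matched a single further gene, TPP2, through the letters of its name. TPP2 is tripeptidyl peptidase II, a protease and no part of the ribosome. It fell 1.62-fold in stn7 (log2 difference -0.69, SE 0.16, limma, adjusted p = 0.0321). The call of TPP2 was lost in the deposited values (-0.45 log2), after set centring (-0.53 log2) and without any 1 of the 6 averaged replicates (-0.77 to -0.57 log2). It was also lost without stn7 sample 1 (-0.63 log2) or stn7 sample 4 (-0.62 log2), and with only stn7 sample 1 against the WT (-0.73 log2).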

How the data were processed

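The values came from 1 table of the series. The authors' deposited values are linear intensities, 0 or above, whose column means run from 1.01 to 1.07. The sources used here do not state how they were scanned, corrected and scaled, or on which build probes were designed. Values were given for 3437 of 3439 probes, of which 692 had 1 gene in the platform annotation, 869 several and 1876 no entry; 690 of the 692 were found in the RefSeq gene table of TAIR10.1.

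Arrays were quantile-normalized, and a floor was set at the 10th percentile (0.0702, or -3.83 log2) ahead of the log2 step. This removed 188 probes, which sat at the floor throughout. Probes of 1 locus were averaged, leaving 3248 features. Consecutive samples were averaged, a choice made from the values. The fit across features used limma 3.58.1 (lmFit, eBayes) under R 4.3.3, with the group as its only term, and two-sided p-values were adjusted over all features by the Benjamini-Hochberg method. For set centring, every sample was shifted within each set of 6 recurring probe numbers by the median of that set's deviations from the probes' means. The fit and the centring were tested on simulated data, with noise drawn independently for every value. A gene with its own change inside a shifted set was not simulated, so the test does not cover the set-centred call of RPL5. Plots used matplotlib 3.10.9 (Python 3.11.15).

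RPL5, the lists and the processing, set centring included, were chosen with earlier results of these data known. The text names RPL5, the 6 genes of plastid RNA processing, translation and targeting, matches of the translation words, and the 3 single-gene features with the highest Pearson correlation with RPL5 over 12 samples. The 6 genes were picked from the annotation after the files had been opened. Alternatives covered scaling, floor, a dim filter, the variance model, separate samples, a replicate block, samples left out, the source name and probe-number sets.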

Additional observations from a re-analysis of the deposited data

How the results depend on the processing

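The RPL5 difference lay above 0 under all 53 alternatives run, which all reuse the same 12 samples. The variance model, the dim filter, a replicate block and separate samples cannot change its estimate, so this count is no measure of independent support. RPL5 newly passed the threshold with 12 separate samples (0.33 log2, limma, adjusted p = 0.0330) and with a replicate block on them (0.33, limma, adjusted p = 0.0117). Both fits count consecutive samples as independent, and they called 1283 and 1442 of the 3248 features. AT2G23160, AT1G01500 and AT2G30100 passed in both of these fits too (limma, adjusted p between 0.000492 and 0.00597). OTP85 passed with set centring of 12 separate samples (-0.41, limma, adjusted p = 0.0348), as 916 of the 3248 features did. RPL5 also passed with set centring (0.70), and with sets of 3 (0.65) and 12 (0.74). It passed too with set centring of the deposited values (0.72), of median-centred arrays (0.72) and of 12 separate samples (0.70). It did not pass with the replicate block on averaged replicates (0.33, adjusted p = 0.145), nor with set centring and that block (0.70, adjusted p = 0.0717). Other scalings gave 0.43 (deposited values) and 0.19 (median centring), where the median of all features was 0.19 and -0.03 log2. Leaving out 1 averaged replicate gave 0.20 to 0.41, or 0.62 to 0.81 after set centring, and leaving out 1 sample 0.29 to 0.38, or 0.66 to 0.74.

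Same-numbered averaged replicates of stn7 and WT correlated at 0.171, 0.120 and 0.0901, not all over 0.1, so the numbers were not taken to pair samples. All 3 correlations lay above 0, so this choice does not show an absence of pairing. The replicate block gave 407 calls against 494 and ended that of TPP2 (adjusted p = 0.0595) and added AT1G01500 (0.60, adjusted p = 0.0452), with no other named gene changing its call. Calls moved to 1283 with 12 separate samples, 1442 with a replicate block on them, 8 with only stn7 sample 1, 184 with set centring, 117 with set centring and the replicate block, 173 and 223 with sets of 3 and 12, 150 and 153 with set centring of deposited and median-centred values, and 916 with set centring of 12 separate samples. Without 1 averaged replicate counts were 4 to 284, or 12 to 131 after set centring, and without 1 sample 419 to 493, or 148 to 190. The cause of these shifts was not tested, beyond the smaller number of samples.

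Direction turned only in genes that had not passed. In the deposited values OTP85 was at 0.0013 and SECE1 at 0.12 log2, with median centring ATAB2 at -0.0029, and with only stn7 sample 1 SECE1 at 0.072. Under set centring, with the replicate block or 12 separate samples too, ATAB2 was at -0.12, CRR21 at -0.27 and SECE1 at 0.40; with sets of 3 these were -0.16, -0.28 and 0.40, and with sets of 12 CRR21 was at -0.29 and SECE1 at 0.36. Set-centred deposited values gave -0.24, -0.23 and 0.45, with AT2G30100 at -0.030, and set-centred median-centred arrays -0.21, -0.24 and 0.45, with AT2G30100 at -0.035. Fits that left out a replicate or sample gave CRR21 values from -0.03 to 0.24 (-0.37 to -0.15 after set centring), SECE1 from -0.21 to 0.11 (0.31 to 0.51), ATAB2 from 0.06 to 0.29 (-0.22 to 0.03) and OTP70 from -0.42 to -0.01 (-0.22 to 0.11). Of these turned values 1 passed, SECE1 with set centring of 12 separate samples (adjusted p = 0.0114). Set centring with other widths, other scalings, separate samples or samples left out was added after seeing the data. Signal over background is not known.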
